A study of Mus musculus with 2 samples.

Results

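Ankyrin repeat and SOCS box genes (Asb genes) that are expressed in muscle were read in the diaphragm of late mouse embryos that lacked the repressor RP58 and of wild-type embryos. The set held 10 genes, namely Asb2, Asb4, Asb5, Asb8, Asb10, Asb11, Asb12, Asb14, Asb15 and Asb18. It took in all 15 probe sets that carry one of these as their single symbol, of 45101 probe sets on the array, and all 10 symbols were found. The genes were chosen by their family and by their differences between these same arrays, so the differences below are a description and carry no test. The study compared RP58-/- with RP58+/+ embryos of the C57/BL6 strain at embryonic day 18.5, with 1 array of total RNA from the skeletal muscle of the diaphragm for each genotype. RP58, now named Zbtb18, is a zinc finger repressor whose gene is knocked out in the RP58-/- embryos per the labels, and the sources used here do not give how many embryos each array holds. Since neither genotype was replicated, no difference has a replicate check.

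Asb proteins are substrate receptors of ubiquitin ligases. Their ankyrin repeats hold a target protein, and their SOCS box binds the elongin B and C pair together with the scaffold Cullin 5, whose RING partner brings in the ubiquitin-conjugating enzyme. Several family members are made mainly in skeletal or heart muscle, where the family is best known for the turnover of cytoskeletal proteins and for effects on muscle growth and on differentiation. RP58 is known to repress the Id genes in differentiating muscle, and its mutant embryos have poorly developed muscle.

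All values are the authors' RMA signals on the log2 scale, and a difference is RP58-/- minus RP58+/+. A gene was counted as lower or higher when its difference reached 1.5-fold, which is 0.58 on the log2 scale, at the brightest of its probe sets. A probe set was treated as dim and not counted when its mean over both arrays fell short of 5.52, the 40th percentile of the whole array. RMA sets the arrays to one distribution, so every difference is relative to the median gene (-0.003). Where a gene had several probe sets above that floor, the pooled SD of their differences around the gene's mean was 0.28 over 5675 genes, which covers probe error and isoforms but not embryos or dissection. In bulk tissue, fewer muscle cells and less RNA per muscle cell cannot be told apart.

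Skeletal muscle markers were measurable on both arrays, together with markers of neighbouring tissues. All 15 muscle markers were above the floor on each array, and Actn3 (-2.13) and Myh8 (-1.94) lay furthest from 0. Their linear signals summed to 39454 on the RP58-/- array and 82481 on the RP58+/+ array, with 12 lower and 0 higher. Liver markers summed to 139961 on the RP58-/- array and 96158 on the RP58+/+ array, with 8 of 12 higher (Hpx 1.32, Apoc1 1.07), and lung epithelium markers to 3113 on the RP58-/- array and 629.4 on the RP58+/+ array, with 3 of 6 above the floor higher (Sftpc 3.64, Ager 1.24). Sftpc carries most of the lung sum, and the other 5 genes summed to 599.0 on the RP58-/- array and 428.3 on the RP58+/+ array. A second probe set of Sftpc, under the floor on both arrays, differed by 0.57. Mesothelium markers summed to 11956 on the RP58-/- array and 7476 on the RP58+/+ array, with 4 of 7 higher (Krt19 1.12, Krt7 0.75), and leukocyte markers to 18415 on the RP58-/- array and 12132 on the RP58+/+ array, with 3 of 8 higher (Camp 0.97, Ngp 0.71). Beside these counts, 6.51% of all genes above the floor were lower and 3.83% higher. Medians of the other marker lists were -0.22 for endothelium (Cldn5 -0.69, Pecam1 -0.44), 0.12 for smooth muscle (Smtn -0.76, Myh11 0.67) and 0.11 for heart (Myl4 -0.35, Gata4 0.35), and the heart markers Nppa and Myh6 lay under the floor on both arrays. The part of this tissue makeup in the Asb differences was not tested. The targeted gene Zbtb18 did not check the labels, since its probe set read 9.21 on the RP58-/- array and 8.91 on the RP58+/+ array, and the sources used here do not place it relative to the deleted part. Every direction therefore rests on the labels of the arrays. The RNA Xist read 6.96 on the RP58-/- array and 11.47 on the RP58+/+ array. The Y-linked gene Eif2s3y read 8.58 on the RP58-/- array and 3.59 on the RP58+/+ array at its brightest probe set. Y-linked Kdm5d read 7.40 on the RP58-/- array and 4.09 on the RP58+/+ array. Dimmer probe sets of these 2 Y-linked genes differed by -0.21 to 0.43. The samples thus also differ in sex-linked signal, and with 1 array each this cannot be told apart from genotype for any difference. As a sign of RNA integrity, the difference at the 3′ control probe set minus that at the 5′ one was -0.06 for Gapdh and 0.22 for Actb.

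Most muscle-expressed Asb genes that could be read were lower on the RP58-/- array, and the sizes were far apart. Of 10 genes, 8 had a probe set above the floor, and the size rule counted 6 of these as lower and 0 as higher, whereas 6.51% of 14093 genes above the floor were lower and 3.83% higher. The 6 were Asb5, Asb12, Asb2, Asb8, Asb11 and Asb4, and with the arrays scaled to the poly-A spike-in RNAs, which adds 0.75 to every difference, Asb11 and Asb4 came to 0.026 and 0.093. The median over the 8 genes was -0.85, and over all genes it was -0.003. At 2-fold, 3 of the 8 were lower, against 2.31% of all genes. The choice of the set fixes these counts, so nothing is read from them. Counted over probe sets with no floor, 9 of 15 were lower by 1.5-fold and 0 higher, beside 4.04% of all probe sets lower.

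**Figure D1:**
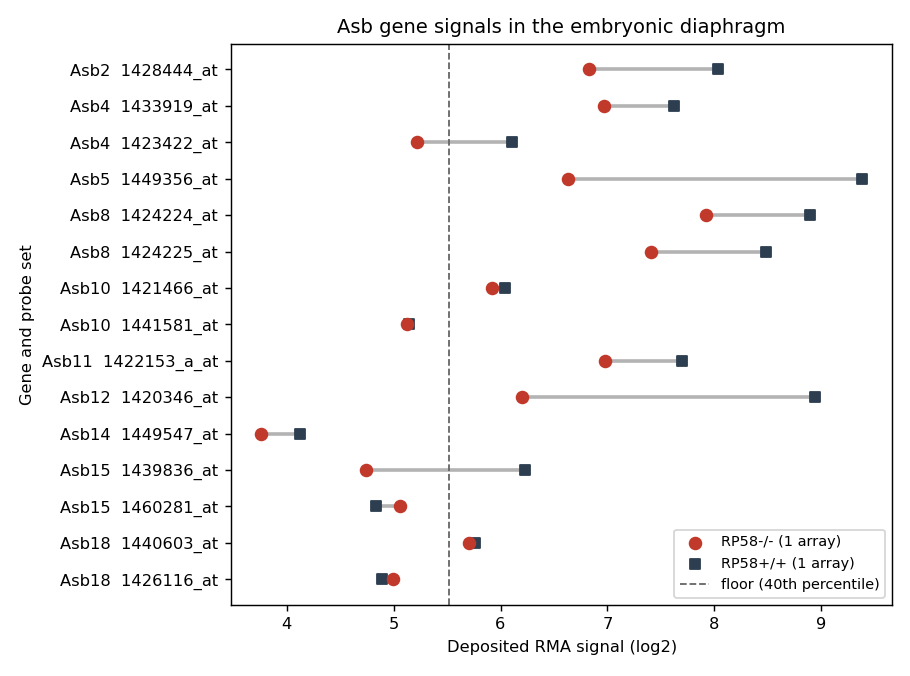
Deposited log2 signal (x axis) of each of the 15 probe sets of the muscle-expressed Asb genes (rows) on the RP58-/- array (red circles) and the RP58+/+ array (dark squares), 1 array each, with the floor of 5.52 as a dashed line. The widest gaps are those of Asb5 and Asb12, and signals of different probe sets are not comparable with each other.

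Asb5 and Asb12 stood apart from the rest of the set. Asb5, which in rabbit was described in growing collateral arteries and which is abundant in skeletal muscle, read 6.63 on the RP58-/- array and 9.38 on the RP58+/+ array at its single probe set. The difference of -2.76 (6.76-fold lower) was the 8th lowest of 14093 genes. Asb12, an X-linked member made in skeletal and heart muscle, read 6.20 on the RP58-/- array and 8.94 on the RP58+/+ array, also at 1 probe set. Its difference of -2.75 (6.70-fold lower) ranked 9th, directly after Asb5. Both genes remained above the floor on the RP58-/- array. The gene next to Asb5 on the lower side of this ranking was Rpl3l, a ribosomal protein gene of striated muscle, at -2.77, and on the other side stood Asb12 itself.

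Both genes differed more than any of the 15 skeletal muscle markers, among which Actn3, the alpha-actinin of fast fibres, was the lowest at -2.13. This contrast depends on the markers listed. Outside the list, the muscle genes Pvalb (-3.69), Mybpc2 (-3.36) and Art3 (-2.78) were lower than both. Tmem182 (-2.70) and Ckmt2 (-2.52) were slightly less low. Against the median of the 15 markers (-1.42), Asb5 lay 1.33 and Asb12 1.32 further below on the log2 scale. The other members lay above that median. Asb2 was 0.21 above it, Asb8 0.45, Asb11 0.70 and Asb4 0.77, with 8 to 10 of 15 markers below each of them, and Asb10 and Asb18 were 1.30 and 1.37 above it. Differences of very bright probe sets can be compressed, and several markers, such as Acta1 (13.36 on the RP58-/- array and 13.95 on the RP58+/+ array), are near the top of the scale. The part of this in the comparison was not tested.

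**Figure D2:**
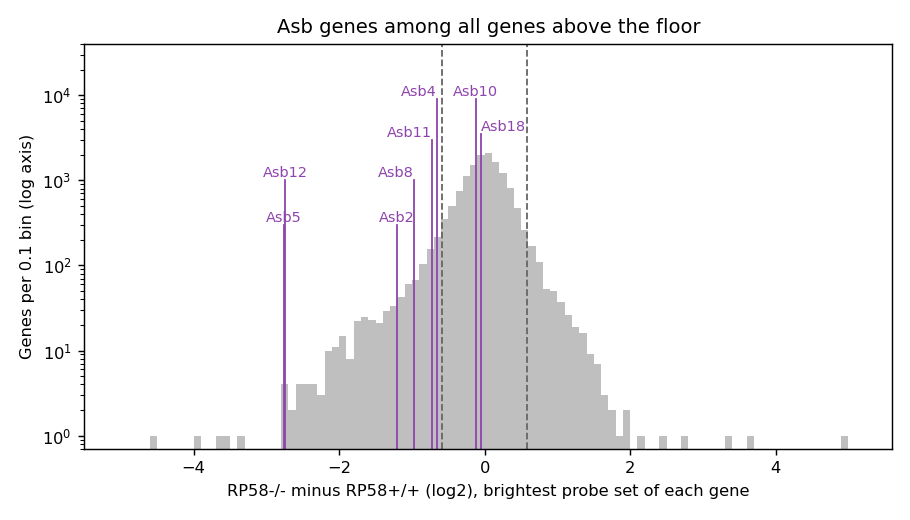
Number of genes (log axis) by difference RP58-/- minus RP58+/+ (log2, bins of 0.1) over 14093 genes above the floor, with the 8 Asb genes that could be read marked by vertical lines whose height has no meaning and the 1.5-fold bounds dashed. Asb5 (-2.76) and Asb12 (-2.75) lie in the sparse lower tail, while Asb10 (-0.13) and Asb18 (-0.05) lie in the bulk.

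The promoters of this pair are shown because they carry the 2 lowest values, together with the matches found there for motifs known from muscle genes. Sequences are RefSeq's, build GRCm38.p6, from 250 bases before to 50 after the annotated start. Capitals mark every match on either strand of CANNTG (the E-box bound by MyoD-type factors), CATTCC (M-CAT, bound by TEAD factors), the MEF2 site and ACATCTG (the core of the sequence that RP58 binds). The first of 3 annotated starts of Asb5 (chr8:54550081-54550380, plus strand) has its E-boxes after the start, and the second of them is of the CAGCTG form preferred by myogenic factors. The promoter of Asb12 (chrX:95478080-95478379, minus strand) holds a MEF2 match from base -48 to -39 and an E-box further upstream.
Asb5: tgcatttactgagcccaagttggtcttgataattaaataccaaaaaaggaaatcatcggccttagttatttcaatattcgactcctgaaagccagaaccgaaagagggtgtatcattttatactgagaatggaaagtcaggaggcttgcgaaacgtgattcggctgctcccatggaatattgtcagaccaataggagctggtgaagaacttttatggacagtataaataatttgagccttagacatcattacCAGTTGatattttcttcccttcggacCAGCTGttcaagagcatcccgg
Asb12: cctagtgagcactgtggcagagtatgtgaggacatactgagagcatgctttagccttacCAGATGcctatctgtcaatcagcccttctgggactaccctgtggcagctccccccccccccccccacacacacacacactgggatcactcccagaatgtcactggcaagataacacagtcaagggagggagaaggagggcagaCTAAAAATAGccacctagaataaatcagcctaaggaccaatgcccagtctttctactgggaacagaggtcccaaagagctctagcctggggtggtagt
A MEF2 match occurs in 0.557% of all 32851 promoter windows and in 2 of the 15 windows of the muscle-expressed Asb genes, those of Asb12 and Asb18. The CAGCTG form occurs in 16.3% of all windows and in 3 of 15, which belong to Asb2, Asb5 and Asb18. Of the 8 windows of Asb genes outside the set, 1 has a MEF2 match and 3 have the CAGCTG form.

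Asb2 is the member with the best known targets. It directs the breakdown of filamins, the actin cross-linkers that differentiating muscle cells remodel, and its muscle isoform has also been tied to desmin and to the control of muscle mass. On the RP58-/- array Asb2 read 6.83, and on the RP58+/+ array 8.04. The difference was -1.21 (2.32-fold lower) at its single probe set, rank 220 from the bottom. Among the genes of its targets, filamin A (Flna) read 9.03 on the RP58-/- array and 8.12 on the RP58+/+ array and was higher by 1.88-fold. Desmin (Des) read 9.35 on the RP58-/- array and 10.75 on the RP58+/+ array, which made it lower by 2.65-fold, while a dimmer probe set of Des differed by 0.27. The muscle filamin Flnc differed by -0.36. These are transcript signals and say nothing of the amount of filamin or desmin protein. The whole list held 15 genes on the array whose products were reported as targets or partners of Asb proteins, with a median of 0.07. Of these, 1 (6.67%) was lower (Des), beside 6.51% of all genes, and 2 (13.3%) were higher, beside 3.83% of all genes. The higher ones were Flna and the mitochondrial creatine kinase gene Ckmt1 at 0.67, with -0.55 at another probe set of Ckmt1.

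Asb8 gave the same reading at 2 probe sets. The brighter read 7.92 on the RP58-/- array and 8.90 on the RP58+/+ array (-0.98, 1.97-fold lower), and the other read 7.41 on the RP58-/- array and 8.49 on the RP58+/+ array (-1.08). The probe sets thus differed by less than the pooled SD of 0.28. Asb8 was first described as a gene of human skeletal muscle. It is the only member with no E-box in any of its promoter windows, and one of them, on the minus strand at chr15:98145653-98145952, is rich in CpG, with 24 CpG pairs against a median of 7 over all windows. That window is shown for this contrast with Asb12, whose window has 0 CpG pairs, and its single match is an M-CAT motif on the opposite strand, from base -108 to -103.
Asb8: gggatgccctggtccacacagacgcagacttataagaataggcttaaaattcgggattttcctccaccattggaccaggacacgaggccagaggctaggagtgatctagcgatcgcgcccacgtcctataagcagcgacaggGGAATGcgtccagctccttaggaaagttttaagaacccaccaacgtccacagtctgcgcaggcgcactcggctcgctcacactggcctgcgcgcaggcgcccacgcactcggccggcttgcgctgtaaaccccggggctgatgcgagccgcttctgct
M-CAT matches occur in 14.7% of all windows, and among the muscle-expressed Asb genes in 2 of 15, those of Asb8 and Asb10. In the Asb genes outside the set they occur in 1 of 8 windows.

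Asb4 was lower at both of its probe sets. The brighter read 6.97 on the RP58-/- array and 7.63 on the RP58+/+ array (-0.66, 1.57-fold lower), just inside the size rule. The dimmer read 5.21 on the RP58-/- array, under the floor, and 6.11 on the RP58+/+ array (-0.90). Asb4 is known less from muscle than from vascular cells, placenta and the hypothalamus, and its protein binds the oxygen sensor FIH, whose gene Hif1an differed by 0.04. Endothelial markers had 1 of 7 (14.3%) lower above the floor, beside 6.51% of all genes, and their part in the Asb4 difference was not tested.

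Asb11 read 6.98 on the RP58-/- array and 7.70 on the RP58+/+ array (-0.72, 1.65-fold lower), at a single probe set of the _a_at kind, which can match several transcripts of one gene. In zebrafish the homologous protein acts in progenitor cells of nerve and muscle through the Notch ligand DeltaA, and the mammalian protein targets ribophorin 1, whose gene Rpn1 differed by 0.16. The mouse gene for a related Notch ligand, Dll1, differed by 0.10. Asb11 and Asb12 lie on the X chromosome, and the arrays differ in sex-linked signal. Among 446 X-linked genes above the floor, 11.7% were lower by the size rule, beside 6.51% of all genes, and the median was -0.06. Asb12 was the lowest of them after Xist, and Asb11 was the 39th lowest. Asb9, the next gene to Asb11 on the chromosome and a family member that is not in the set, read 5.57 on the RP58-/- array and 5.55 on the RP58+/+ array.

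Asb15 and Asb14 could not be counted, because all of their probe sets lay under the floor. Asb15, which has been tied to muscle growth in cattle and mice, had probe sets that disagreed. One read 4.75 on the RP58-/- array and 6.23 on the RP58+/+ array, a difference of -1.48, and its mean of 5.49 missed the floor narrowly. The other read 5.06 on the RP58-/- array and 4.83 on the RP58+/+ array, a difference of 0.23. Only the first of these lay above the floor on either array, and there on the RP58+/+ array alone. Asb14 read 3.76 on the RP58-/- array and 4.12 on the RP58+/+ array (-0.36), near the bottom of the scale, so its level was not measurable here.

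The position of Asb15 is unusual in the set. It lies on chromosome 6 between Ndufa5, a subunit gene of respiratory complex I, and Lmod2, which encodes the thin filament regulator leiomodin 2. Ndufa5 read 10.95 on the RP58-/- array and 11.99 on the RP58+/+ array (-1.04), and Lmod2 read 6.88 on the RP58-/- array and 9.14 on the RP58+/+ array (-2.26). Asb15 and Ndufa5 are transcribed away from each other, and their promoter windows share 47 bases, which holds for no other gene of the set. The window of Asb15 (chr6:24527894-24528193, plus strand) is printed because it also contains the RP58 core, from base -26 to -20, which overlaps the third of its 4 E-boxes.
Asb15: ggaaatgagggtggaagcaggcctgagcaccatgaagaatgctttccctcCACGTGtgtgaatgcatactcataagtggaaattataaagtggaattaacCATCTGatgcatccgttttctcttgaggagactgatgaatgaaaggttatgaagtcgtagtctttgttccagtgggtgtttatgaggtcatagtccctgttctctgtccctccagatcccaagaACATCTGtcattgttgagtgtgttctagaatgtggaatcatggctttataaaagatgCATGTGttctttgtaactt
The RP58 core occurs in 4.43% of all windows and in 2 of 15 here, the second being a window of Asb4. The E-box occurs in 72.3% of all windows and in 13 of 15, and every RP58 core contains an E-box of the CATCTG form. Of the 8 windows of Asb genes outside the set, 0 have the RP58 core and 6 have an E-box.

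Asb10 and Asb18 were within the size rule. Asb10, linked in humans to glaucoma, read 5.92 on the RP58-/- array and 6.04 on the RP58+/+ array (-0.13), and its dimmer probe set differed by -0.02. Asb18, a little studied member made in striated muscle, read 5.71 on the RP58-/- array and 5.76 on the RP58+/+ array (-0.05), with 0.10 at a probe set under the floor. All these signals are close to or under the floor, where RMA compresses differences. The promoter of Asb18 (chr1:90014617-90014916, minus strand) holds an E-box of the CAGCTG form, a MEF2 match from base -11 to -2 and a further E-box at the start. It is shown because it and that of Asb12 are the ones in the set with a MEF2 match.
Asb18: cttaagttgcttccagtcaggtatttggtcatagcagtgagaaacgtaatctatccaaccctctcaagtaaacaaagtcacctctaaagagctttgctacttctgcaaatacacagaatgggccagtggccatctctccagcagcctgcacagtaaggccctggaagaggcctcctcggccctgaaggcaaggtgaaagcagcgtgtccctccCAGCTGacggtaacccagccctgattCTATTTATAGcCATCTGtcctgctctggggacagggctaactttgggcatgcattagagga
The part of these motifs in the differences was not tested, and the difference of Asb18 is limited by its signal close to the floor.

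**Figure D3:**
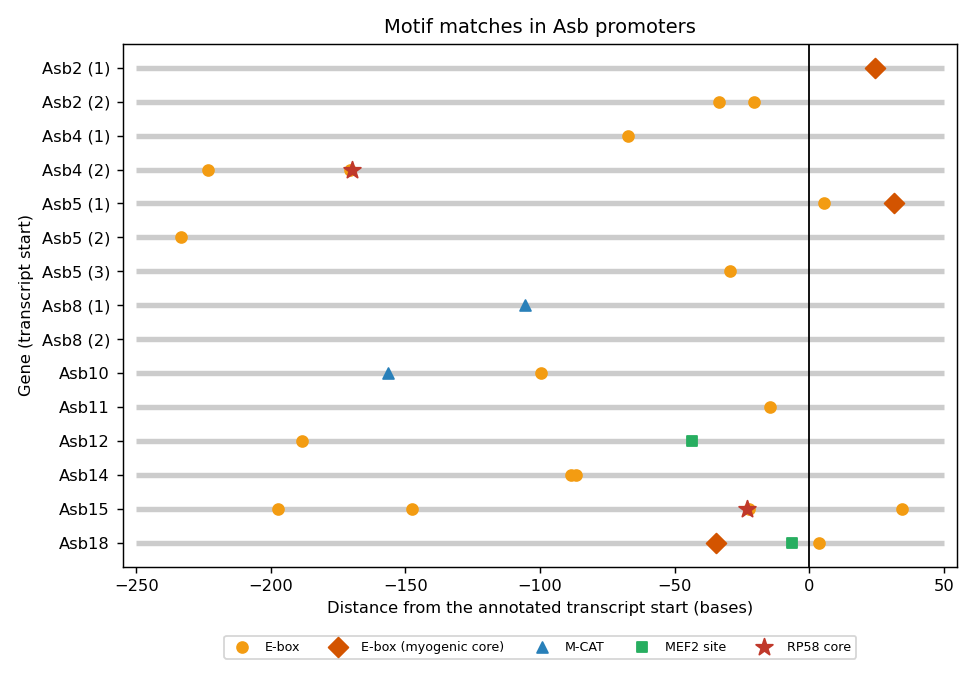
Matches of the E-box, its CAGCTG form (diamonds, myogenic core), M-CAT, the MEF2 site and the RP58 core in the 15 annotated promoter windows of the 10 genes, by distance in bases from the annotated transcript start (0, vertical line). Numbers in parentheses count the starts of a gene along the chromosome, MEF2 matches lie in Asb12 and Asb18, and RP58 cores lie in the second window of Asb4 and in Asb15.

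The chromosomal neighbours of the muscle-expressed Asb genes were read beside them. The nearest gene above the floor on each side was read for every member, which gave 20 genes, of which 3 (15%) were lower, beside 6.51% of all genes, 0 were higher and the median was -0.10. The 3 were Lmod2, Ndufa5 and, beside Asb8, the muscle phosphofructokinase gene Pfkm, which read 9.03 on the RP58-/- array and 10.66 on the RP58+/+ array (-1.63). The neighbours of the lowest genes, Asb5 and Asb12, stayed within the size rule. Spcs3 and Gpm6a, on either side of Asb5, were at -0.04 and 0.21, and Amer1 and Zc4h2, on either side of Asb12, were at -0.10 and -0.49. Beside Asb2, Otub2 was at -0.42 and Prima1 at 0.02, and beside Asb4, Pdk4 was at -0.30 and Pon2 at -0.25. Around Asb14, Pde12 was at -0.50 and Appl1 at -0.09. The remaining neighbours were Gbx1 and Abcf2 beside Asb10, Piga beside Asb11, Ccdc184 beside Asb8, and 4933400F21Rik and Iqca beside Asb18, all between -0.10 and 0.11.

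The other Asb genes stayed within the size rule. Of these 8 genes, 7 reached the floor, and their median was -0.06, which became 0.68 with the arrays scaled to the poly-A spike-ins. Asb13 (-0.40), Asb1 (-0.22), Asb16 (-0.16), Asb7 (-0.06), Asb3 (-0.001), Asb9 (0.01) and Asb6 (0.26) made up this group, and Asb17, known from testis, read 4.27 on the RP58-/- array and 4.39 on the RP58+/+ array, under the floor. All 18 probe sets of these genes lay between -0.55 and 0.38. Probe sets disagreed in sign for Asb13, at -0.40 and 0.38 above the floor, for Asb6, at 0.26 and -0.15, for Asb1, at -0.40 to 0.37, and for Asb7, at -0.48 to 0.05 with the dim ones included. Linear signals of the brightest probe sets summed to 892.2 on the RP58-/- array and 2426 on the RP58+/+ array for the 8 muscle-expressed genes, and to 1057 on the RP58-/- array and 1078 on the RP58+/+ array for the 7 others. Asb5 and Asb12 carry most of the gap between the sums of the muscle-expressed genes. These sums add probe sets whose signals are not comparable with each other. The division follows the choice of the set, and the difference between the groups was not tested.

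**Figure D4:**
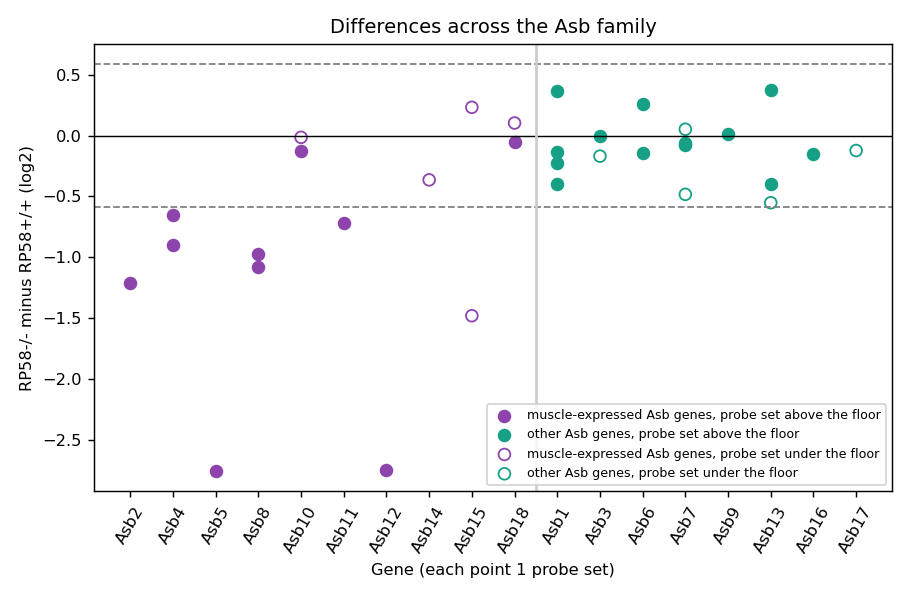
Difference RP58-/- minus RP58+/+ (log2, y axis) of every probe set of 18 Asb genes (x axis), the 10 muscle-expressed genes on the left and the other 8 on the right, with open points for probe sets under the floor and dashed lines at 1.5-fold. All 18 probe sets of the other genes lie within the dashed lines.

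The list here called the ligase core holds the Cullin 5 ligase subunits Cul5, Rnf7, Elob and Eloc. The rest of it is mostly genes of NEDD8 transfer and of cullin regulation, not partners that Asb proteins bind. Of its 14 genes above the floor, 13 were below 0, against 50.4% of all genes. The median was -0.47, which became 0.28 with the arrays scaled to the poly-A spike-ins. The size rule counted 3 of the 14 (21.4%) as lower, beside 6.51% of all genes, and 0 as higher. Without _s_at, _x_at and _a_at probe sets the median was -0.20. The scaffold gene Cul5 read 6.75 on the RP58-/- array and 7.40 on the RP58+/+ array (-0.64), and its 3 probe sets ran from -0.64 to -0.46. Its RING partner Rnf7 read 10.58 on the RP58-/- array and 11.17 on the RP58+/+ array (-0.59), with -0.19 at a second probe set. Ube2f, the enzyme that passes the activator NEDD8 to Cullin 5, read 8.86 on the RP58-/- array and 10.00 on the RP58+/+ array (-1.15), but its 6 probe sets ran from -1.15 to -0.07. The elongin genes Elob and Eloc differed by -0.20 and -0.47 and Nedd8 by -0.31, all within the size rule. The only member above 0 was Cand1, which exchanges substrate receptors on cullins, at 0.09, while its muscle-enriched relative Cand2 was at -0.58, just short of the rule.

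Some other substrate receptors of the same or related ligases were lower too. Of 22 further SOCS box and elongin-binding receptors above the floor, the size rule counted 5 (22.7%) as lower, beside 6.51% of all genes, and 0 as higher, and the median was -0.11. The 5 were Rab40b (-1.16), Neurl2 (-1.03), which encodes a muscle protein also named Ozz, Fem1a (-0.98), Socs6 (-0.81) and Klhdc2 (-0.59). The probe sets of Fem1a ran from -0.98 to 0.16 and those of Klhdc2 from -1.01 to 0.26. Kelch-like adaptors of muscle, which serve Cullin 3, had 3 of 4 (75%) lower (Klhl41 -1.98, Klhl40 -1.44, Klhl30 -1.21) with a median of -1.33. The remaining gene, Kbtbd13, was at -0.25, with -1.24 at another probe set. Of the 9 kelch-like genes listed, 6 were on the array and 4 above the floor. Among ubiquitin ligase genes of muscle atrophy, 2 of 8 (25%) were lower (Trim63 -1.61, Trim54 -1.40) with a median of -0.37, and both shares stand beside the same 6.51% of all genes. Asb5 and Asb12 differed by more than any gene above the floor in these 3 lists.

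**Figure D5:**
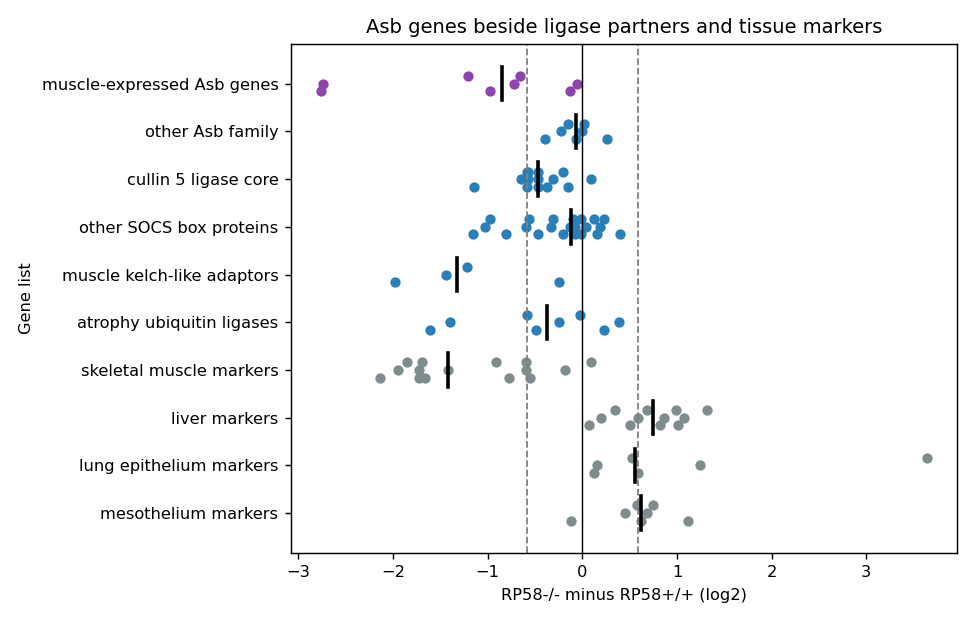
Difference RP58-/- minus RP58+/+ (log2, x axis) of each gene above the floor (points) by gene list (rows), with list medians as black bars and the 1.5-fold bounds dashed. Medians are -0.85 for the muscle-expressed Asb genes, -0.06 for the other Asb genes, -0.47 for the ligase core with its regulators, -1.42 for skeletal muscle markers and 0.75 for liver markers.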

How the data were processed

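The data were 2 arrays, 1 for RP58-/- and 1 for RP58+/+ diaphragm. The deposited values are log2 signals that the authors computed with RMA, per the series' design text, and the submitters' processing notes list Affymetrix Expression Console 1.1. The sources used here do not give which arrays were normalised together. Of 45101 probe sets, 34945 carried 1 gene symbol, 932 several and 9160 none in the platform annotation, and 64 were controls. Differences, counts past 1.5-fold and medians were computed from the deposited values with pandas 2.3.3 and numpy 2.4.6. The code was also run on simulated data with planted differences and noise of the size of the pooled SD. That run holds no variation between embryos or dissections, so it checks the code and not the counts. With 1 array a group no test was run and no spread between embryos is known. The number of arrays limits the precision.

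The members, gene lists and tests were chosen with earlier results of these data known. The text names every Asb gene, list members past the size rule, the 2 members of each marker list furthest from 0, chromosomal neighbours, and the neighbours in rank of the lowest gene. Further genes (such as Hif1an, Rpn1, Dll1, Flnc, Acta1, Elob, Eloc, Nedd8, Cand1, Cand2, Eif2s3y, Kdm5d, Pvalb, Mybpc2, Art3, Tmem182 and Ckmt2) were named after their values were seen. Promoters are RefSeq's windows of 300 bases, found for all 10 genes. The MEF2 and CAGCTG motifs were added after the E-box, M-CAT and RP58 core. Gene order came from the RefSeq table of GRCm38.p6. No protein sequence was used here.

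Alternatives tried were averaging the probe sets of a gene, no floor, a floor at the 60th percentile, centring on the median, loess on mean signal (fraction 0.3), scaling to 24 poly-A spike-in probe sets, leaving out _s_at, _x_at and _a_at probe sets, and a 2-fold rule.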

Additional observations from a re-analysis of the deposited data

How the results depend on the processing

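Scaling to the poly-A spike-ins moved most values, since all 24 of these probe sets read lower on the RP58-/- array (median -0.75, range -1.17 to -0.46) and the median of all genes became 0.74. Under it, 2 muscle-expressed Asb genes (Asb5 at -2.01 and, with nearly the same value, Asb12) passed the 1.5-fold rule as lower, against 6 in the main setting, beside 1.29% of all genes. The median of the muscle-expressed genes became -0.10, that of the other Asb genes 0.68 and that of the ligase core 0.28. Without _s_at, _x_at and _a_at probe sets the ligase core was at -0.20, against -0.47 in the main setting. Asb11 (0.026) and Asb4 (0.093) changed sign, and Asb2 came to -0.46 and Asb8 to -0.23. Asb10 (0.62) and Asb18 (0.69) passed the rule as higher, but the median of all genes (0.74) passed it too. Both lay below that median, so nothing is read from their calls in this setting. The sources used here do not give when the spike-ins were added. The 2-fold rule gave 3 lower genes. Of 53 values of single genes under the alternatives, 45 moved by less than the pooled SD of 0.28, and the 8 that moved further or changed sign all belong to the spike-in scaling. No other Asb gene was lower by the rule under any alternative listed. With no floor, all 10 muscle-expressed genes were read and 7 were lower, beside 5.38% of 18193 genes. Asb15 was the one added, by a probe set at 4.75 on the RP58-/- array, while its other probe set differed by 0.23. No paired analysis was possible because each genotype has 1 array. The signal over background limits Asb10, Asb14, Asb15 and Asb18.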
